A study of Mus musculus with 6 samples.

Results

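The endogenous Hox genes of mouse cells that carry an inducible human HOXA13 were examined. Every gene symbol made of Hox, a cluster letter from a to d and a paralog number was taken, except Hoxa13, which left 38 genes of the 24393 listed. They were grouped by cluster and by paralog number, 1-4, 5-8 and 9-13. The comparison addressed whether the level of the cell's own Hox transcripts differed between cultures with and without the induced HOXA13.

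RNA was measured in 6 libraries, 3 labelled CONTROL and 3 labelled HOXA13, from KH2 mouse embryonic stem cells of strain C57/BL/6, a line with a docking site for doxycycline-driven transgenes. In the HOXA13 genotype, the human gene with its intron and a FLAG tag was placed at that site, and the study's methods describe the replicates as chosen from correctly targeted clones, so each may be 1 clone. All cultures were differentiated without LIF on M15 cells, a feeder line derived from mesoderm, in medium with Activin-A, basic FGF, CHIR and Noggin. Doxycycline at 1.25 µg/ml was given from day 4, cells that stained for CXCR4 as well as E-cadherin were collected by flow sorting at day 6, and the sorted cells were grown for another day with doxycycline before RNA isolation. The sources used here do not say separately whether CONTROL cultures also received doxycycline, nor whether the replicates were differentiated on separate days, so p-values measure only the spread between these samples.

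Hox genes encode transcription factors that bind DNA through a homeodomain. They lie in 4 clusters, HoxA on chromosome 6, HoxB on chromosome 11, HoxC on chromosome 15 and HoxD on chromosome 2, and genes of the same paralog number in different clusters descend from 1 ancestral gene. Along each cluster, genes of low paralog number act towards the head and early in development, and those of high number act towards the tail and later. Undifferentiated stem cells hold the clusters under Polycomb repression, and retinoic acid, Wnt and Cdx factors open them during differentiation. Posterior Hox proteins are known to restrain more anterior Hox genes in the same cell in several embryonic tissues.

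The HOXA13 transgene separated the groups without exception. The human HOXA13 identifier had 0 counts in each CONTROL library, and 192, 449 and 398 CPM (read counts scaled to the normalised library size) in HOXA13 replicates 1, 2 and 3. Mouse Hoxa13 had 10, 0 and 1 counts in CONTROL and 0, 5 and 1 in HOXA13 libraries. It was at or under 3 counts in 4 of these 6 libraries. The libraries held between 12279884 and 17331638 counts, so that 3 counts, the smallest level taken as detected, corresponded to between 0.176 and 0.24 CPM. This floor covers counting error only.

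The libraries were not alike within CONTROL. The summed level of 25 mesenchymal markers was 3254, 7146 and 7065 CPM in HOXA13 replicates 1, 2 and 3, while CONTROL gave 16039.8, 4151 and 12963 CPM. The 24 epithelial markers summed to 2966, 9911 and 7094 CPM in CONTROL and to 12413, 12922 and 14615 CPM in HOXA13. The 14 pluripotency markers were highest in CONTROL replicate 2, at 1880 CPM against 194 and 343 CPM in the other CONTROL libraries. Cdh1, the E-cadherin gene of the sort, was at 192, 1292 and 702 CPM in CONTROL and between 1690 and 1893 CPM in HOXA13, whereas Cxcr4, the other sorted marker, lay between 2.25 and 11.3 CPM. Of 13 definitive endoderm genes, Eomes (24.4 to 111 CPM), Gata4 (13.1 to 31.9 CPM) and Gata6 (5.69 to 35.8 CPM) were present in every library, Sox17 lay between 0.975 and 4.84 CPM, and Cer1 was at 0 counts throughout. Y-linked transcripts summed to 134 CPM in CONTROL replicate 3, to 8.65 CPM in CONTROL replicate 1 and to at most 0.469 CPM in the other 4 libraries. The libraries are labelled as 1 line. Why they differed in Y-linked transcripts was not tested, nor was a common origin of the CONTROL clones. Without CONTROL replicate 3, edgeR called 0 of all 14174 genes tested, so its 0 Hox calls say nothing particular of Hox genes. The Hox median log2 fold change was then -0.93, against -0.99 with all libraries.

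Start-site sequence was examined because HOXA13 is itself a DNA-binding protein with a preference for cores of the TTTAT kind. The 250 bases before the start site were taken from RefSeq's promoter table for 23 promoters of 21 Hox genes and placed in mm9 by exact match. Hoxd8, the tested Hox gene with the smallest p between the groups, and Hoxd4, whose groups overlapped, are printed 5′ to 3′ on the gene's strand, with TTTAT and its reverse complement ATAAA in capitals.
Hoxd8, chr2:74542422-74542671 (+): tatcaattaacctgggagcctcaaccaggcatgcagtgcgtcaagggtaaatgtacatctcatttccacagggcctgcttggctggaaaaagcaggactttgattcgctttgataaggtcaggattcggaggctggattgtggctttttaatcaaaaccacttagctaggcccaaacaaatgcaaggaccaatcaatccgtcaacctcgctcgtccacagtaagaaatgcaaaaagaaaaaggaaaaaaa
Hoxd4, chr2:74559785-74560034 (+): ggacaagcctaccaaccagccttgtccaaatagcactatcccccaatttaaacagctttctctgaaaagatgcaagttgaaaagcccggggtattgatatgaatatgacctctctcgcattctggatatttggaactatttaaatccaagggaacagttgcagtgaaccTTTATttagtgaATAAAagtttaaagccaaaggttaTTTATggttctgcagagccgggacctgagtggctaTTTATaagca
Hoxd8 held no match and Hoxd4 held 4. Of the other genes lower without overlap between the groups, Hoxb8 held 6 matches, the most of any, Hoxd13 held 2 and Hoxd3 held 1. Hoxa11, Hoxb4, Hoxd1 and Hoxd10 held none. Hoxb9, Hoxc5 and Hoxc6, also without overlap, were not among the 21 genes examined. TTTAT was found on either strand in 9 of the 23 promoters (39.1%), against 37.3% of 32851 mouse promoters of the same length. The longer core TGATTNAT, bound by Hox proteins together with Pbx, was in 2 of 23 (8.7%) against 2.82%. Those 2 promoters belong to Hoxa2 and Hoxd11, whose groups overlapped. A match describes the letters of the window and no binding was measured here.

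Counts can be assigned to a paralog only where its sequence differs. Over whole transcripts, no stretch of 75 bases, the read length, was shared between Hox genes of different clusters. Within a cluster, stretches were shared by Hoxd3 and Hoxd4 (19.7% and 40.6% of their stretches), by Hoxb7 and Hoxb8 (26.5% and 36.1%) and by Hoxa2 and Hoxa3 (8.30% and 3.67%). Counts of these 6 genes are therefore uncertain as to which neighbour of the pair the reads came from.

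None of the 33 Hox genes that passed the filter on low counts was past the threshold with edgeR at an adjusted p of 0.05, against 0.309% of all 13600 genes tested. Levels were nevertheless mostly lower in HOXA13 libraries, at 27 of the 33 genes, whereas 51.2% of all tested genes had a fold change below 0. The median log2 fold change was -0.99 over the tested Hox genes and -0.01 over all tested genes. At 9 of the 33, all lower in HOXA13, the unadjusted p was under 0.05, with a background of 6.02%. That count, always of lower genes, was 5 of 35 without HOXA13 replicate 3, 6 of 33 without CONTROL replicate 1 and 15 of 33 with limma voom. Backgrounds for these other settings are not given here. All 3 HOXA13 libraries were below all 3 CONTROL libraries at 11 genes (background 8.52%), and at 0 genes were they above (background 11.5%).

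The filter bears on these counts, since a gene low in every library could not enter. Hoxb1, Hoxc4, Hoxc11, Hoxc12 and Hoxd12 were not tested. Of the tested genes, 9 were over the filter's level in all CONTROL libraries but not in all HOXA13 libraries, and so passed through CONTROL. They include 4 of the 11 genes without overlap (Hoxb4, Hoxc5, Hoxd1 and Hoxd3) and 2 of the 9 with an unadjusted p under 0.05 (Hoxc5 and Hoxd1). Of the 20 Hox genes over that level in all 6 libraries, 17 were lower (background of such genes 50.9%), with a median of -0.92, 7 were lower with an unadjusted edgeR p under 0.05 (background 6.51%), and 7 were lower without overlap (background 8.66%). This requirement can itself remove genes that were low in HOXA13. Of the 20 with a mean of at least 50 counts over all libraries, 19 were lower (background 50.6%), 7 were lower with such a p (background 6.85%) and 8 were lower without overlap (background 8.67%). They still include Hoxa5 and Hoxb4, which passed through CONTROL, and Hoxb4 is among the 8. Both splits were made after the data had been seen. With no filter, 31 of the 38 genes had a fold change below 0.

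**Figure D1:**
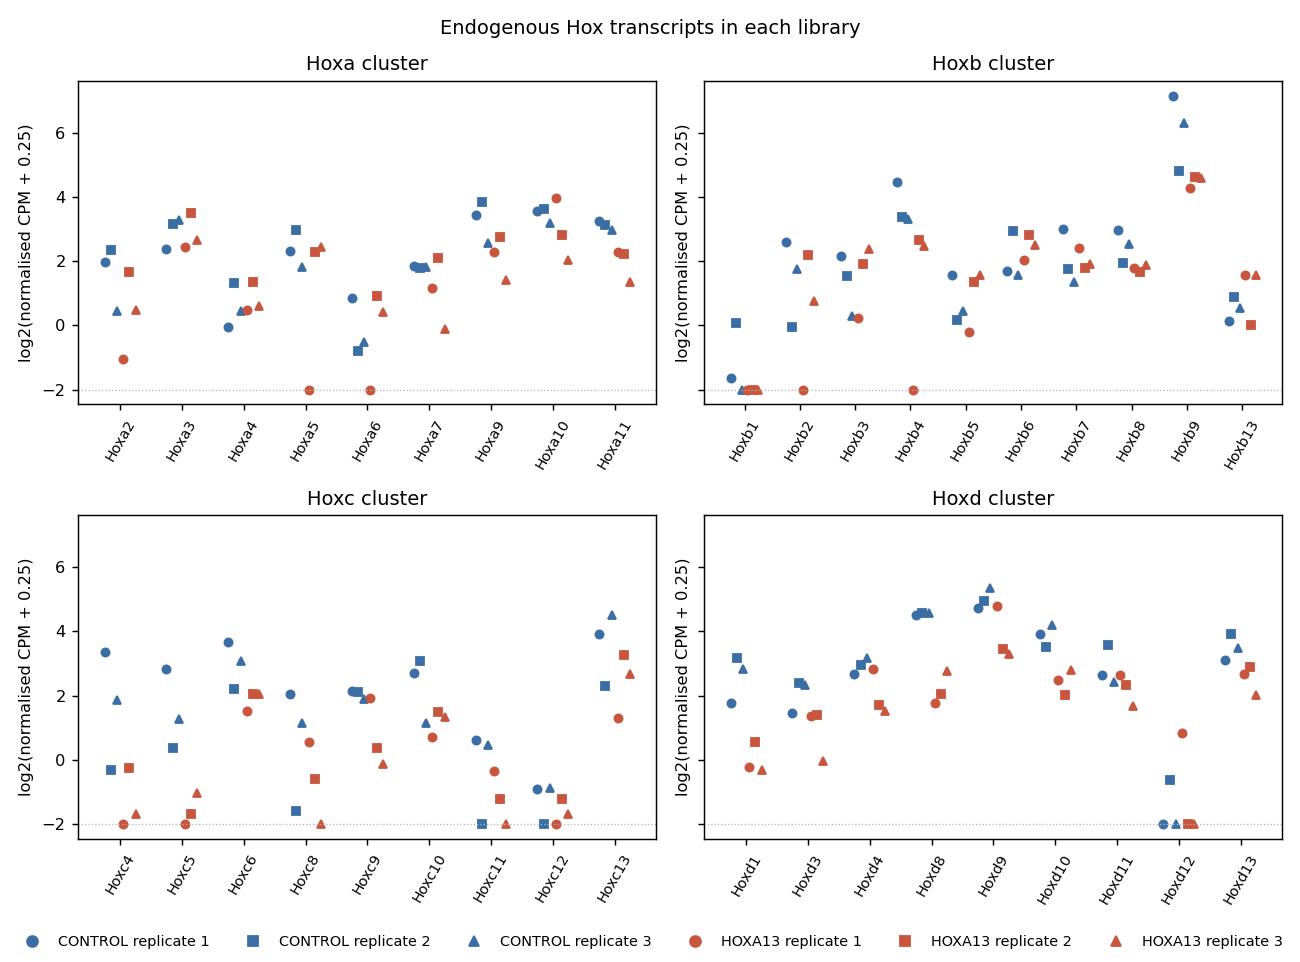
Level of 37 Hox genes in each library, as log2 of normalised CPM plus 0.25, with genes in paralog order along the x axis and 1 panel per cluster. The dotted line marks 0 counts, and the HOXA13 points lie below the CONTROL points without overlap at 11 genes, with the widest gaps on this axis at Hoxd8, Hoxc5 and Hoxd1.

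The summed level of all 38 genes was 416, 274 and 336 CPM in CONTROL, against 151, 174 and 137 CPM in HOXA13 libraries. The groups did not overlap, and the HOXA13 mean was 154 ± 18.5 CPM (SD, n = 3) against 342 ± 71.2 CPM. Without Hoxb9 the sums were 275, 247 and 258 CPM in CONTROL, against 132, 150 and 114 CPM in HOXA13, and the SD of CONTROL was 14.3 CPM. In bulk RNA, a smaller fraction of Hox-expressing cells and less Hox RNA per cell cannot be told apart.

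Among the 4 clusters, HoxD gave the clearest separation between libraries. Its sum was 89.7, 114 and 118 CPM in CONTROL, against 59.3, 37.1 and 33.3 CPM in HOXA13. HoxC summed to 60.1, 22.9 and 45.1 CPM in CONTROL and to 11.5, 18.2 and 13.2 CPM in HOXA13. Both clusters were lower in every HOXA13 library, but CONTROL replicate 2 was high in HoxD and low in HoxC. HoxA summed to 71.8, 79.4 and 67.6 CPM in CONTROL and to 45, 64.4 and 37.7 CPM in HOXA13, with a smaller gap. HoxB summed to 195, 58.3 and 105 CPM in CONTROL and to 35.6, 54.2 and 53.1 CPM in HOXA13. Once Hoxb9 was taken out, HoxB overlapped between the groups, at 53.4, 30.9 and 26.6 CPM against 16.4, 29.9 and 29.6 CPM.

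**Figure D2:**
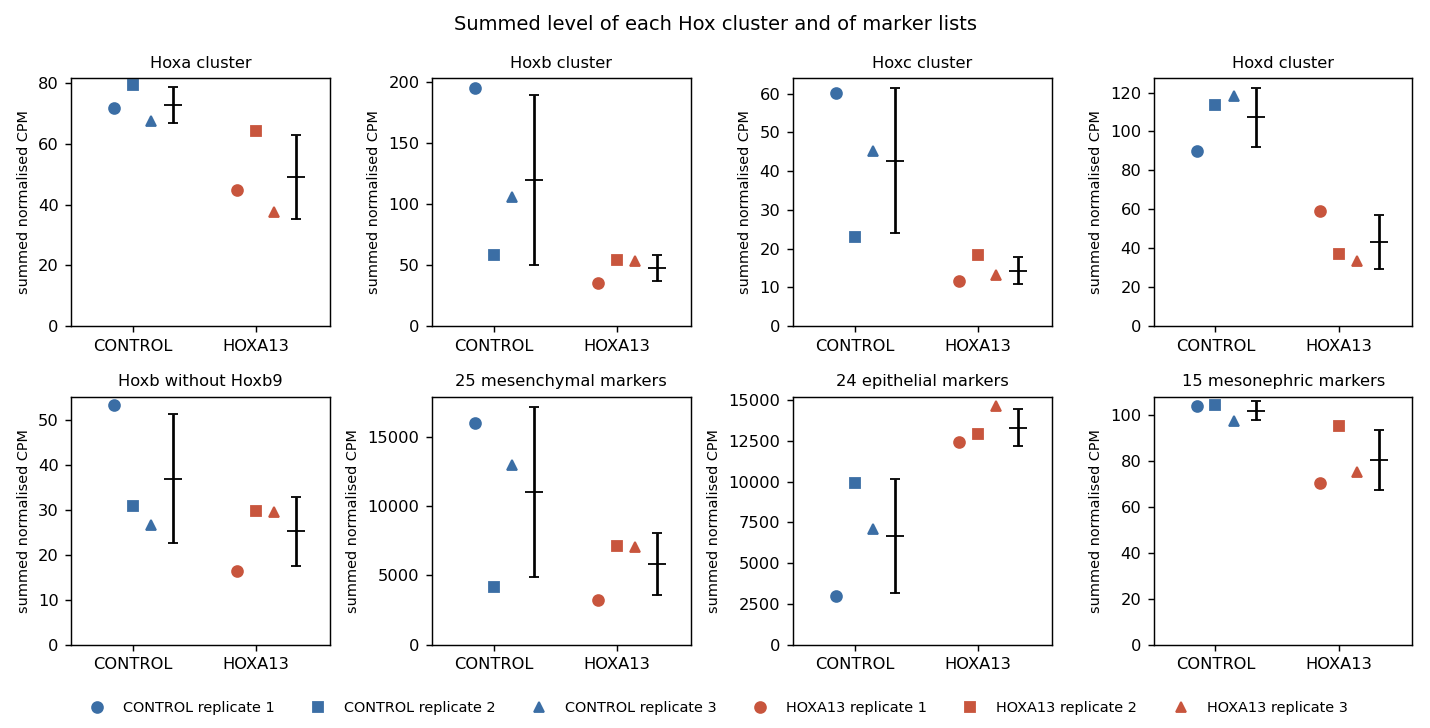
Summed normalised CPM of each Hox cluster, of HoxB without Hoxb9 and of 3 marker lists in each library, with black bars for the mean and SD of 3 libraries. HoxD separates the groups with CONTROL replicate 2 (square) at 114 CPM beside the other CONTROL libraries, whereas the mesenchymal sum of that library, 4151 CPM, lies within the HOXA13 range.

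All 8 tested HoxD genes had a fold change below 0, with a median of -1.10, and 5 of them did not overlap between the groups (background 8.52%). Hoxd8, a gene of the trunk region (chr2:74542672-74545990, plus strand), was at 22.5, 23.6 and 23.5 CPM in CONTROL and at 3.15, 3.92 and 6.61 CPM in HOXA13. The CONTROL values were close to each other and every HOXA13 value was far below them. Its log2 fold change was -2.34 ± 0.35 (SE), and its edgeR adjusted p of 0.0503 lay just outside the threshold. Hoxd1, the most anterior gene of the cluster (chr2:74601037-74603200, plus strand), was at 3.12, 8.79 and 6.82 CPM in CONTROL and at 0.615, 1.23 and 0.546 CPM in HOXA13. The HOXA13 libraries held 8, 21 and 9 counts of it, and the groups did not overlap. The log2 fold change of Hoxd1 was -2.95 ± 0.70 (edgeR adjusted p = 0.123).

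The genes at the 5′ end of the cluster pattern the limbs and the caudal trunk, and the median log2 fold change was -1.01 over the 4 tested HoxD genes of paralogs 9-13 and -1.16 over the 3 of paralogs 1-4. Hoxd10, which acts in lumbar motor neurons, was at 14.9, 11.2 and 18.1 CPM in CONTROL and at 5.3, 3.81 and 6.67 CPM in HOXA13 (log2 fold change -1.49 ± 0.37, edgeR adjusted p = 0.136). Hoxd13, a paralog of HOXA13 needed for digits and the hindgut sphincter, was at 8.3, 14.8 and 10.8 CPM in CONTROL and at 6.15, 7.15 and 3.76 CPM in HOXA13 (-0.99 ± 0.41, adjusted p = 0.33). Neither gene overlapped between groups, although for Hoxd13 the nearest libraries were close. Hoxd9, the highest HoxD gene, was at 26.2, 30.8 and 40.5 CPM in CONTROL and at 27.4, 10.8 and 9.46 CPM in HOXA13 (-1.04 ± 0.43, adjusted p = 0.331). There, HOXA13 replicate 1 was as high as CONTROL and the other HOXA13 libraries were not, and without that library the log2 fold change was -1.70. Hoxd3, which patterns the first vertebrae, was at 2.48, 4.96 and 4.72 CPM in CONTROL and at 2.31, 2.4 and 0.728 CPM in HOXA13 (-1.16 ± 0.71, adjusted p = 0.532), subject to the stretches it shares with Hoxd4. Hoxd4 and Hoxd11 overlapped, with log2 fold changes of -0.85 (-1.43 without HOXA13 replicate 1) and -0.73 (-0.30 without CONTROL replicate 2). Hoxd12 had 20 counts in HOXA13 replicate 1, 5 in CONTROL replicate 2 and 0 elsewhere.

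**Figure D3:**
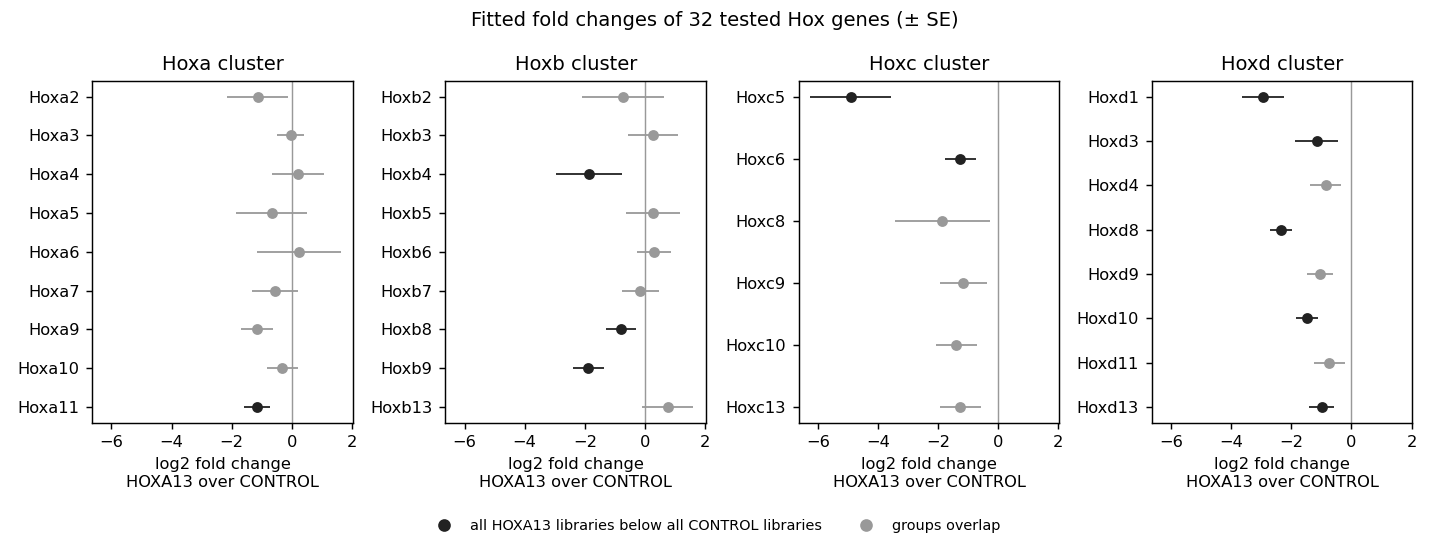
Fitted log2 fold change (HOXA13 over CONTROL) of 32 tested Hox genes, with bars for the SE, in paralog order within each cluster. All 8 HoxD and all 6 HoxC genes lie left of 0, and the 11 black points mark genes whose groups do not overlap.

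All 6 tested HoxC genes also had a fold change below 0, with a median of -1.33. The HoxC median was -2.63 without HOXA13 replicate 1 and -2.02 without CONTROL replicate 2. In those fits 35 rather than 33 Hox genes passed the filter, so the medians are not over the same 6 genes. Hoxc5, a gene of the neck and upper thorax (chr15:102844246-102847860, plus strand), was at 6.88, 1.04 and 2.17 CPM in CONTROL and at 0, 0.0586 and 0.243 CPM in HOXA13. The HOXA13 libraries held 0, 1 and 4 counts, so the size of the change is poorly fixed even though the groups did not overlap. It had the largest fitted decrease of any Hox gene (-4.91 ± 1.34, edgeR adjusted p = 0.161). Hoxc6, which marks the start of the thorax, was at 12.5, 4.4 and 8.17 CPM in CONTROL and at 2.61, 3.92 and 3.88 CPM in HOXA13 (-1.26 ± 0.51, adjusted p = 0.319), with CONTROL replicate 2 close to the HOXA13 values.

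The caudal HoxC genes overlapped between the groups. Hoxc13, which drives hair keratin genes, was at 14.9, 4.64 and 22.6 CPM in CONTROL and at 2.23, 9.26 and 6.06 CPM in HOXA13 (-1.26 ± 0.67, adjusted p = 0.46). Hoxc10, a lumbar gene, was at 6.24, 8.16 and 1.95 CPM in CONTROL and at 1.38, 2.58 and 2.24 CPM in HOXA13 (-1.39 ± 0.68, adjusted p = 0.415). In both, 1 CONTROL library lay among the HOXA13 libraries. Without CONTROL replicate 3, the log2 fold change of Hoxc13 was -0.75. Hoxc8 and Hoxc9 had log2 fold changes of -1.86 and -1.16 and also overlapped. Leaving out HOXA13 replicate 1 moved these to -3.22 and -2.18, and leaving out CONTROL replicate 1 moved Hoxc8 to -0.93. Of the untested genes, Hoxc4 had 140, 7 and 45 counts in CONTROL and 0, 10 and 1 in HOXA13, Hoxc11 had 18, 0 and 15 against 7, 3 and 0, and Hoxc12 had at most 4 counts in any library.

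HoxB was the cluster with the least uniform direction, with 5 of 9 tested genes below 0 and 4 above. The median was -0.16, and leaving out 1 library moved it between -0.48 (without CONTROL replicate 3) and 0.0737 (without CONTROL replicate 1). Hoxb9, which patterns the ribs (chr11:96132771-96137909, plus strand), was at 141, 27.4 and 78.7 CPM in CONTROL and at 19.2, 24.3 and 23.5 CPM in HOXA13. CONTROL replicates 1 and 3 were far above all other libraries, whereas CONTROL replicate 2 exceeded the highest HOXA13 library by little. The log2 fold change was -1.88 ± 0.51 (edgeR adjusted p = 0.159), and was -1.27 without CONTROL replicate 1 and -2.31 without CONTROL replicate 2. Hoxb4, known for its action in blood stem cells, was at 21.6, 10.2 and 9.67 CPM in CONTROL and at 0, 6.09 and 5.27 CPM in HOXA13 (-1.85 ± 1.10, adjusted p = 0.515). The groups did not overlap, and HOXA13 replicate 1 had no read of the gene. Hoxb8, which acts in microglia and the spinal cord, was at 7.59, 3.6 and 5.47 CPM in CONTROL and at 3.23, 2.93 and 3.46 CPM in HOXA13 (-0.79 ± 0.50, adjusted p = 0.546), with shared sequence as given for Hoxb7, and its log2 fold change was -0.52 without CONTROL replicate 1.

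For 4 HoxB genes the fitted value was higher in HOXA13, and none of these passed the test. Hoxb13, the most caudal gene of the cluster and known from the prostate and tail bud, was at 0.851, 1.6 and 1.2 CPM in CONTROL and at 2.69, 0.762 and 2.73 CPM in HOXA13 (0.75 ± 0.85, adjusted p = 0.768). Hoxb6, a trunk gene, was at 2.98, 7.36 and 2.7 CPM in CONTROL and at 3.84, 6.8 and 5.46 CPM in HOXA13 (0.31 ± 0.56, adjusted p = 0.863). Hoxb3, a hindbrain gene, was at 4.18, 2.64 and 0.975 CPM in CONTROL and at 0.922, 3.51 and 4.97 CPM in HOXA13 (0.27 ± 0.84, adjusted p = 0.928). Hoxb5, also a trunk gene, had a log2 fold change of 0.26 ± 0.90. Leaving out 1 library moved the value of Hoxb13 to 0.47 (HOXA13 replicate 3) and that of Hoxb6 to between 0.0395 (CONTROL replicate 3) and 0.90 (CONTROL replicate 2), and turned the sign of Hoxb3 and Hoxb5. In all 4 the groups overlapped and the SE was larger than the difference. Hoxb1, the retinoic acid responsive gene of the hindbrain, had 1, 10 and 0 counts in CONTROL and 0 in every HOXA13 library, which allows no more than 0.231 CPM in the shallowest of them.

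HoxA, the cluster that holds Hoxa13 itself, had 8 of 10 genes below 0 with a median of -0.54, which was -0.92 without HOXA13 replicate 2 and -0.31 without HOXA13 replicate 3. Hoxa11, the tested gene nearest to Hoxa13 (chr6:52192107-52196213, minus strand) and known from the forearm, kidney and uterus, was at 9.22, 8.48 and 7.65 CPM in CONTROL and at 4.61, 4.45 and 2.3 CPM in HOXA13. It was the HoxA gene without overlap between groups (-1.16 ± 0.44, edgeR adjusted p = 0.294). Hoxa10, its neighbour, known from the uterus and the lumbar spine, was at 11.4, 12.2 and 8.77 CPM in CONTROL and at 15.4, 6.74 and 3.82 CPM in HOXA13 (-0.32 ± 0.51, adjusted p = 0.841), where the highest and the lowest library both carried the transgene, and the value was -1.04 without HOXA13 replicate 1 and 0.0118 without HOXA13 replicate 3. Hoxa3, needed for the thymus and parathyroid, was at 4.89, 8.64 and 9.45 CPM in CONTROL and at 5.23, 11.1 and 6 CPM in HOXA13 (-0.04 ± 0.46, adjusted p = 0.984), a value whose sign turned when 1 library was left out. Another 6 HoxA genes had log2 fold changes between -1.16 (Hoxa9) and 0.23 (Hoxa6), all with overlap. Among these, leaving out 1 library moved Hoxa2 to between -2.21 (HOXA13 replicate 2) and -0.66 (HOXA13 replicate 1), Hoxa5 to between -1.19 (HOXA13 replicate 3) and -0.10 (HOXA13 replicate 1) and Hoxa7 to between -1.32 (HOXA13 replicate 2) and -0.13 (HOXA13 replicate 3), and turned the sign of Hoxa4 and Hoxa6.

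Each paralog group, taken over the 4 clusters, had more genes lower than higher. Genes 1-4 summed to 84.4, 69.8 and 75.9 CPM in CONTROL and to 29, 57.7 and 37.8 CPM in HOXA13. Of 10 tested, 8 were lower, with a median of -0.79. That median was -1.45 without HOXA13 replicate 2, where 35 rather than 33 Hox genes passed the filter. Genes 5-8 summed to 76.3, 55.2 and 54.5 CPM and to 21.7, 33.7 and 32.9 CPM, with 8 of 11 lower and a median of -0.67 (-1.01 without HOXA13 replicate 2). Genes 9-13 summed to 256, 149 and 206 CPM and to 101, 82.5 and 66.7 CPM, with 11 of 12 lower and a median of -1.16. The sums of each paralog group did not overlap between CONTROL and HOXA13. Within HoxB, however, genes 5-8 were 2 higher and 2 lower, with sums of 20.9, 15 and 11.6 CPM in CONTROL that overlapped those of HOXA13, 12.8, 15.2 and 15.2 CPM. Genes 9-13 made up 61.4, 54.4 and 61.2% of the Hox CPM in CONTROL and 66.4, 47.4 and 48.6% in HOXA13, so their share overlapped. HOXA13 replicate 1 had 8 of the 38 genes at 0 counts, among them Hoxa5, Hoxb2, Hoxb4 and Hoxc5, against 2 and 4 in the other HOXA13 libraries and 1, 2 and 2 in CONTROL.

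Levels of different genes were compared per kb of the longest annotated transcript. By its mean over all libraries Hoxb9 was highest, at 32 ± 22.1 CPM per kb in CONTROL and 8.68 ± 1.07 in HOXA13 (SD, n = 3). Hoxd9 followed at 14.9 ± 3.34 and 7.28 ± 4.59 CPM per kb, and exceeded Hoxb9 in CONTROL replicate 2 (14.1 against 10.7) and in HOXA13 replicate 1 (12.6 against 7.46). Hoxd8 was at 8.81 ± 0.238 in CONTROL, apart from the mean of Hoxd9 by more than either SD, and at 1.73 ± 0.689 CPM per kb in HOXA13. Hoxc13, Hoxa10, Hoxd10, Hoxc6 and Hoxd13 were lower in CONTROL, with CONTROL means between 4.2 and 5.71 CPM per kb.

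**Figure D4:**
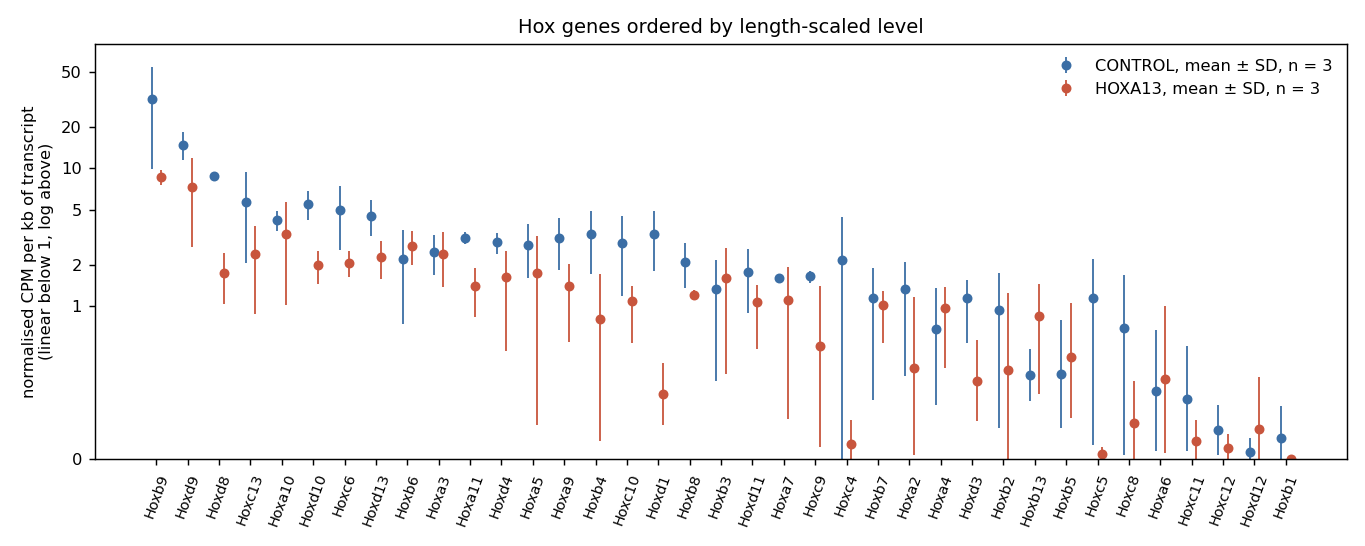
Mean and SD (n = 3) of normalised CPM per kb of transcript for 37 Hox genes, ordered by their mean over all libraries, on an axis that is linear below 1 and logarithmic above. Hoxb9 and Hoxd9 have the highest means, and Hoxd8 lies at 8.81 in CONTROL and at 1.73 in HOXA13.

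The calls depended on CONTROL replicate 2 and on the test. Without that library, edgeR placed 6 Hox genes past the threshold, namely Hoxb9, Hoxc4, Hoxc5, Hoxc6, Hoxd8 and Hoxd10, all lower in HOXA13, where 6.32% of 14084 tested genes were called lower. Hoxc4 and Hoxc5 were over the filter's level in 0 HOXA13 libraries and entered this test through CONTROL alone. With all 6 libraries, DESeq2, the tool of the study, called Hoxb9, Hoxc4, Hoxc5, Hoxd1, Hoxd8 and Hoxd10 lower (background 1.95%), and limma voom called Hoxa11, Hoxb9, Hoxd1, Hoxd8, Hoxd9 and Hoxd10 lower (background 6.34%). None of the 3 called a Hox gene higher. Hoxb9, Hoxd8 and Hoxd10 were called in each of them. For Hoxd8 the adjusted p over all alternatives ranged from 6.52e-07 to 0.262 and the log2 fold change from -2.73 to -2.15.

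Some lists of markers of other cell types differed in sum between the groups, while the mesenchymal and pluripotency sums overlapped. No gene of any list was called by edgeR. All 24 epithelial markers had a fold change above 0, with a median of 1.24, 19 of them were higher in HOXA13 without overlap (background 11.5%) and 15 had an unadjusted edgeR p under 0.05, although none was called. Their sums, given with the libraries, did not overlap, also without Cldn4, the most abundant. The feeder line was of mesonephric origin, and 15 markers of that tissue summed to 104, 104 and 97.1 CPM in CONTROL and to 70.5, 95.2 and 75.3 CPM in HOXA13. These sums did not overlap, but without Gata3 they did. Of the 12 that were tested, 10 had a fold change below 0, with a median of -0.59, and edgeR called none. Wt1, at 1.49, 6.64 and 3.15 CPM against 0, 1.05 and 0.667 CPM, and Nr2f2, at 13.7, 9.19 and 14.2 CPM against 6.3, 4.1 and 2.67 CPM, were lower without overlap. Pax2, Pax8 and Tcf21 had at most 0.879 CPM in any library. Osr2 was higher without overlap, at 0, 0.48 and 0.6 CPM in CONTROL, against 1.77, 2.17 and 1.58 CPM in HOXA13. Of the 24 tested mesenchymal markers, 21 were below 0, with a median of -1.38. Without Fn1, the most abundant, the mesenchymal sums were 12665.5, 2118 and 9235 CPM in CONTROL against 1257, 2516 and 2088 CPM in HOXA13. They still overlapped. Extraembryonic endoderm markers had 7 of 8 below 0, with a median of -0.85. Their sums, 2948, 1177 and 2312 CPM in CONTROL against 763, 858 and 804 CPM in HOXA13, did not overlap, but without Sparc, which is also a mesenchymal marker, they did. Paraxial and lateral mesoderm markers had 4 of 7 below 0, with a median of -1.10, and sums of 177, 127 and 224 CPM against 117, 113 and 95.8 CPM, which overlapped without Kdr. In that list Tbx20 was higher in HOXA13 without overlap, at 17, 14 and 24.2 CPM against 57.2, 38.4 and 41.9 CPM. Definitive endoderm markers had 5 of 9 below 0, with a median of -0.02, and sums of 157, 151 and 192 CPM against 81.3, 121 and 81.6 CPM, which overlapped without Eomes. Neural markers had 7 of 9 below 0, with a median of -0.98, and sums of 409, 181 and 315 CPM against 132, 183 and 173 CPM, which overlapped, whereas without Nes, the most abundant, they did not, at 62.6, 81.3 and 72.9 CPM against 41, 53.4 and 44.6 CPM. The gene left out of each list, that of highest mean CPM, was chosen after the values were seen. HoxC and Hoxb9 were low in CONTROL replicate 2, as the mesenchymal sum was, whereas HoxD and Hoxd8 were as high there as in the other CONTROL libraries. The part of other cell types in the Hox differences was not tested.

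Genes that work with or on the Hox clusters were read from lists. The TALE cofactors, which bind DNA beside Hox proteins, had 3 of 8 tested genes above 0 and 5 below, with a median of -0.10. Of 20 tested regulators, among them Cdx, retinoic acid, Polycomb and trithorax genes, 14 were above 0 and 6 below, with a median of 0.22. Rnf2, the Polycomb ubiquitin ligase, was at 145, 124 and 148 CPM in CONTROL and at 228, 226 and 228 CPM in HOXA13 (0.71 ± 0.14, adjusted p = 0.0954). Of the 20 tested regulators, it was the 1 whose groups did not overlap (background of genes higher without overlap 11.5%). Rara was at 66.5, 29.7 and 39.9 CPM in CONTROL and at 21.9, 32 and 27.4 CPM in HOXA13, with overlap. Its log2 fold change was -0.74 ± 0.32 (edgeR adjusted p = 0.354). Cdx2, an activator of trunk Hox genes, ranged from 16.2 to 98.7 CPM in CONTROL and from 50.2 to 134 CPM in HOXA13 (0.75 ± 0.68, adjusted p = 0.697). edgeR called none of the listed cofactors or regulators.

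The genes that flank the clusters had medians near 0. The median log2 fold change was -0.11 over 5 genes around HoxA, 0.03 over 4 around HoxB, -0.08 over 5 around HoxC and -0.12 over 5 around HoxD, where Mtx2, the neighbour of Hoxd1, was at -0.18 ± 0.21. Over all other tested genes of the same chromosomes, the medians were -0.06 for chromosome 2, -0.06 for chromosome 6, -0.18 for chromosome 11 and 0.01 for chromosome 15.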

How the data were processed

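RNA of 3 CONTROL and 3 HOXA13 samples, grouped and numbered by their titles, was analysed from deposited raw counts, which give the reads of each gene symbol in a sample. The authors made them from directional libraries of mRNA captured with oligo-dT beads, per the labels' protocol, which were read at 75 bases and aligned to mm9, per the study's methods. The submitters' processing notes name bcl2fastq 2.17, TopHat2 2.0.14 and HTSeq 0.6.1p1, while the methods give another TopHat version. The annotation, strand option and handling of reads with several alignments are not given in the sources used here, so overlapping and antisense genes are uncertain.

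Analysis used R 4.3.3 and edgeR 4.0.16. Low genes were removed with filterByExpr (minimum count 10, minimum total 15), and the remaining genes were scaled with TMM and compared with glmQLFit and glmQLFTest on the group alone over all 6 samples, with Benjamini-Hochberg adjustment over all 13600 genes and a threshold of 0.05. The procedure was tested on simulated data, with an outcome that is not reported here. CPM values used TMM-scaled library sizes, and positions and lengths came from GENCODE M1 on mm9. Replicates differed from each other by more than counting noise. Values per sample are given for genes past the threshold, the 3 highest genes of each cluster, the 3 largest increases and decreases whose mean reached 1 CPM, and the genes without overlap, except 1 gene that is not reported here. Alternatives were RLE and upper quartile scaling, no filter, a mean of at least 50 counts, DESeq2 1.42.0, limma 3.58.1 voom with sample weights, the newer edgeR method, a replicate block, chromosome medians and leaving out each replicate. The members, lists, motifs and sequences were chosen with earlier results of these data known.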

Additional observations from a re-analysis of the deposited data

How the results depend on the processing

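With edgeR, 0 Hox genes were called under TMM, and also under RLE scaling, the filter on 50 counts and chromosome medians. Few genes of any kind were called there. The totals were 42 of 13600 under TMM, 34 of 13600 under RLE scaling, 9 of 11292 under the filter and 1 of 13600 under chromosome medians. Upper quartile scaling, no filter and the newer edgeR method each called 1, Hoxd8, and DESeq2 and limma voom each called 6. Over all tested genes, upper quartile scaling called 40 of 13600, no filter 163 of 17697 and the newer edgeR method 106 of 13600. DESeq2 called 722 of 14230 and limma voom 2101 of 13600. Leaving out each replicate called between 0 and 6 Hox genes, the highest without CONTROL replicate 2. Over all tested genes, 2006 of 14084 were called in that set. Without HOXA13 replicate 1 the total was 7 of 14135, and without CONTROL replicate 1 it was 1 of 14096. It was 0 without CONTROL replicate 3, HOXA13 replicate 2 or HOXA13 replicate 3, so Hox genes could not be called there. Each of these Hox calls was lower in HOXA13. Without overlap and lower were 8 genes among those with a mean of at least 50 counts (background 8.67%), a split added after seeing these data. Genes without overlap and higher in HOXA13 numbered from 0 to 2 over the leave-one-out sets. In such sets a group with fewer libraries separates more easily, and their share over all genes is not given here. No reading is drawn from that count. The samples share only a number (correlations of same-numbered deviations -0.21, -0.27 and 0.0979). The replicate block called 0 of all 13600 tested genes. Its HoxB median was 0.0024 instead of -0.16, which is that of Hoxb7. HoxB and Hoxb7 were also at 0.0755 relative to the chromosome median. The HoxD median was -1.59 with limma voom.

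Leaving out each replicate moved the median log2 fold change from -1.32 to -0.80 over all Hox genes, from -0.48 to 0.0737 for HoxB, from -2.63 to -1.19 for HoxC, from -1.46 to -0.80 for HoxD, from -1.45 to -0.63 for paralogs 1-4 and from -1.32 to -0.88 for paralogs 9-13. Without CONTROL replicate 2, or without any HOXA13 replicate, 35 rather than 33 Hox genes passed the filter. Part of a median's move, as for HoxC, is therefore a change in the genes it covers. The sign turned in Hoxa3 (-0.47 to 0.14), Hoxa4 (-0.18 to 0.76), Hoxa6 (-0.51 to 1.22), Hoxa10 (-1.04 to 0.0118), Hoxb3 (-0.24 to 0.78), Hoxb5 (-0.12 to 0.89) and Hoxb7 (-0.48 to 0.50). The other 26 of the 33 genes kept their sign in the 14 or 15 alternatives that gave each a value. The causes were not tested. Genes under 1 CPM rest on few reads, and at 3 libraries a group edgeR called 42 genes in all, against 722 with DESeq2 and 2101 with limma voom.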

Other observations

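Non-coding genes of the clusters were low. Of 15 listed in the files, 4 were tested, 2 with a fold change above 0 and 2 below, and edgeR called none. Hotairm1, a long non-coding RNA of HoxA, was at 1.35, 1.2 and 1.87 CPM in CONTROL and at 0.384, 0.996 and 0.97 CPM in HOXA13 (log2 fold change -0.90 ± 0.88, edgeR adjusted p = 0.726), without overlap. Hoxa11os, transcribed opposite Hoxa11, was at 4.4, 0 and 3.6 CPM in CONTROL and at 2.77, 3.1 and 1.88 CPM in HOXA13 (-0.05 ± 1.23, adjusted p = 0.992), with CONTROL replicate 2 at 0. Hottip, at the Hoxa13 end of HoxA, and Hotair, in HoxC, did not exceed 0.762 CPM in any library.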
